A study of Mus musculus with 12 samples.

Results

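Stress-induced depressed mice (F0_Dep) were compared with normal mice (F0_Ctl) in RNA of the hippocampus. The comparison rests on 6 of the 12 libraries of the study, 3 mice in each group, chosen by their labels. All 6 mice were male C57BL/6 animals aged 8 weeks. F0_Ctl mice were labelled normal and F0_Dep mice were labelled depressed after stress. The sources used here do not give how the stress was applied, its duration or the scoring of depression. The other 6 libraries, from offspring of normal or of depressed fathers, served here only to estimate the spread between mice. Each gene was read in both deposited sources, a table of expected counts for all 12 libraries and FPKM values (fragments per kilobase of transcript, scaled to the library's fragments) for the 6 F0 libraries and 3 offspring libraries.

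The hippocampus forms new memories, and through its many corticosteroid receptors it is also a brain target of stress hormones. Stress releases corticosterone, which binds the glucocorticoid receptor. The bound receptor enters the nucleus and switches on a set of target genes, among them genes of lipid storage, of cell cycle arrest and of feedback on the receptor itself. Chronic stress is known for effects on the dendrites and synapses of hippocampal pyramidal neurons, on the birth of neurons in the dentate gyrus, and on the energy supply of synapses.

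Of 16163 genes tested in counts, 56 rose (0.346%) and 24 fell (0.148%), which together made 80 genes (0.495%), by edgeR's quasi-likelihood test at a Benjamini-Hochberg adjusted p under 0.05. When libraries were scaled by their totals alone, 18 genes rose and 24 fell. In FPKM, 1439 of 13820 genes rose (10.4%) and 1491 fell (10.8%) by limma. The sources were joined to ask which genes changed in both: 45 of the 12619 genes tested in both rose (0.357%) and 14 fell (0.111%). These 59 genes made 78.7% of the 75 count calls that had an FPKM test and 2.01% of the 2930 FPKM calls. Of all genes tested in both, 80% had the same sign of change. Both sources come from the same RNA of the same mice, so their match does not replace a replicate. For lists of genes, 10.5% of all genes tested in both had 3 F0_Dep libraries above all 3 F0_Ctl libraries in both sources, and 9.6% had them below. A gene with this pattern is called apart here.

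**Figure D1:**
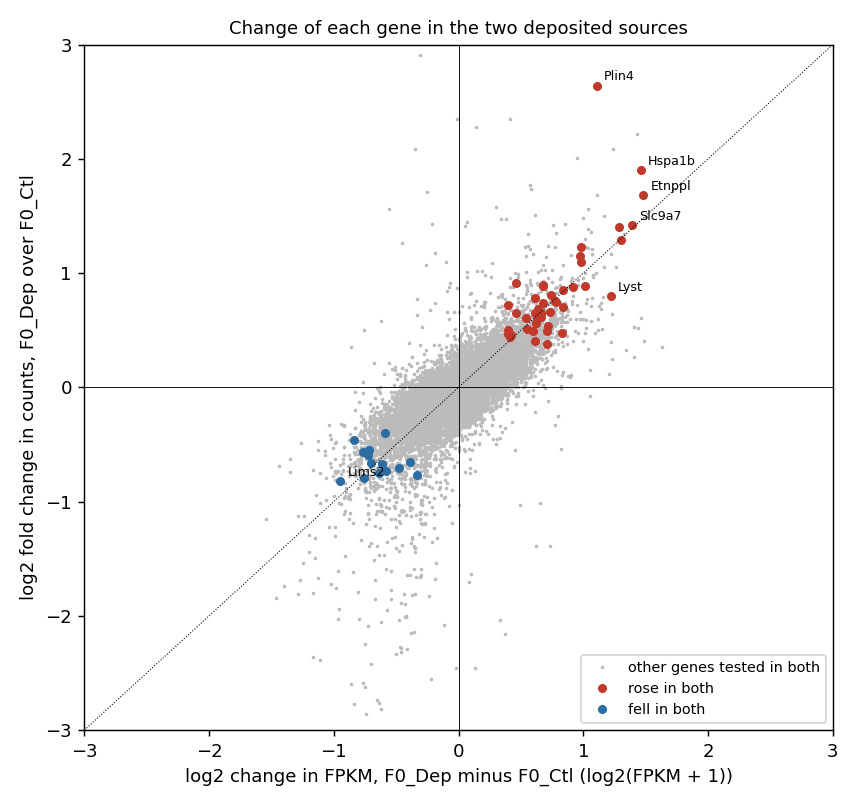
Each point is 1 gene, with its log2 change in FPKM on the horizontal axis and its log2 fold change in counts on the vertical axis, F0_Dep over F0_Ctl. The 45 genes that rose in both sources (red) and the 14 that fell in both (blue) lie away from 0 on both axes, Plin4 and Hspa1b highest, and 35 genes lie beyond the plotted range of 3.

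Library totals of the 6 libraries ran from 18277208 to 21021162 expected counts. Hippocampal marker genes were present in every library: Prox1 of dentate granule cells at 139 to 217 CPM (counts scaled to the library's total), Wfs1 of CA1 neurons at 61.4 to 424 CPM, Grik4 of CA3 neurons at 23.5 to 75.2 CPM and Slc17a7 of excitatory neurons at 1042 to 1470 CPM. F0_Ctl 3 stood apart by Ttr, the transthyretin gene of the choroid plexus, with 4633 CPM against 3 to 196 CPM in the other 5 libraries. The libraries also differed by transcript length.

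Across 10 equal bins of genes by transcript length, the median log2 fold change in counts went from -0.26 in the shortest bin (median 1054 bases) to 0.27 in the longest (median 8510 bases). In FPKM it went from -0.31 to 0.36. The profile was not the same in every mouse. The correlation across genes of a library's centred log2 level with log2 length was -0.39 in F0_Ctl 1 and -0.25 in F0_Ctl 3, and 0.20, 0.30 and 0.37 in F0_Dep 1, 2 and 3 (a description over 12619 genes). F0_Ctl 2, at 0.12, lay nearer to the F0_Dep libraries than to the other normal mice. Of the 45 genes that rose in both sources, 37 were longer than the median of 3479 bases, and their own median was 7526 bases. Of the 14 that fell, 11 were shorter than the median, and their own median was 2370 bases. When each library was given its own smooth correction for length and GC content, 18 genes passed in counts. All 59 genes kept their direction there, and 8 of them kept the call, Plin4, Etnppl, Cdkn1a, Nufip2, Pcdhga5 and Tatdn2 higher and Rfc2 and Zfp945 lower. The source of the length profile was not tested, and it cannot be told apart here from a change of long and short messages in the mice.

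**Figure D2:**
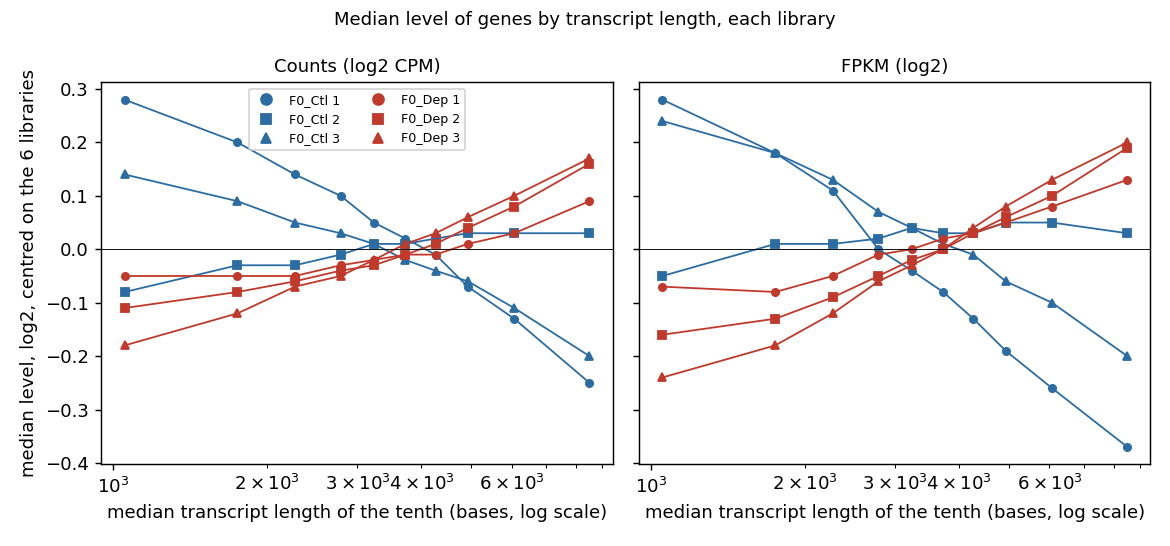
Median log2 level of genes in 10 bins of transcript length (horizontal axis, bases, log scale), centred on the mean of the 6 libraries, in counts (left) and FPKM (right); each line is 1 library. The 3 F0_Dep lines climb with length, from between -0.18 and -0.05 to between 0.09 and 0.17 in counts, F0_Ctl 1 and F0_Ctl 3 descend, and F0_Ctl 2 is nearly flat, from -0.08 to 0.03.

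Genes of the glucocorticoid response stood higher in the stressed mice. Of the 25 tested genes in a list of genes induced by glucocorticoids, 21 had a higher fitted value in F0_Dep, and the median log2 change was 0.44 by counts and 0.28 by FPKM. Over all tested genes 45.4% were higher, with a median of -0.03, in counts, and 47.5%, with a median of -0.02, in FPKM. In the list 11 genes were apart upward in both sources and 0 downward. The list, like the others here, was chosen with earlier results of these data known, so these counts only describe its members. The median level of the list was -0.16, -0.18 and -0.31 in F0_Ctl 1, 2 and 3 and 0.19, 0.31 and 0.13 in F0_Dep 1, 2 and 3, on a log2 scale centred on the 6 libraries, so all 3 stressed mice lay above all 3 normal mice. F0_Ctl 2 lay with the other normal mice here, and with the length and GC correction the median was 0.47.

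Plin4, which coats lipid droplets, had the largest rise in counts among the 59 genes. It measured 1.78, 4.46 and 3.58 CPM in F0_Ctl 1, 2 and 3 and 14.8, 24.6 and 22.1 CPM in F0_Dep 1, 2 and 3. The lowest stressed mouse lay above 3 times the highest normal mouse. The rise was 2.64 ± 0.39 on the log2 scale in counts (SE, edgeR quasi-likelihood, Benjamini-Hochberg adjusted p = 0.0306). In FPKM Plin4 went from 0.205, 0.363 and 0.366 to 1.29, 2.36 and 1.93, a rise of 1.11 ± 0.18 on the log2(FPKM + 1) scale, which understates the change of a gene this low. It passed in counts in 13 of 16 alternatives, and missed without F0_Ctl 1, F0_Dep 2 or F0_Dep 3. Plin4 (ENSMUSG00000002831) lies on chromosome 17 of GRCm38 from 56100591 to 56109803.

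Cdkn1a, an inhibitor of cyclin-dependent kinases (ENSMUSG00000023067, chromosome 17, 29090976 to 29100727), measured 6.97, 5.84 and 8.17 CPM in F0_Ctl and 13.2, 12.8 and 13.2 CPM in F0_Dep. The groups did not overlap, and the 3 stressed mice were nearly equal. It rose by 0.90 ± 0.17 in counts and 0.68 ± 0.16 in FPKM (log2 ± SE). Its transcript of 2080 bases is among the short ones of the genes that rose, and with the length and GC correction the rise was 1.05 with an adjusted p = 0.0205 by edgeR. In counts it passed in 1 of the 6 fits that left out a library, the one without F0_Ctl 3.

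The other members of the list were near the threshold or below it in counts. Sgk1, a kinase that regulates ion channels, measured 62.7, 54.8 and 87.8 CPM in F0_Ctl and 143, 142 and 114 CPM in F0_Dep. It rose in FPKM (adjusted p = 0.0159, limma) and had an adjusted p = 0.0836 in counts by edgeR. Fkbp5, the co-chaperone that lowers the receptor's affinity for its hormone, measured 49.8, 53.2 and 46.8 CPM against 61.8, 73.7 and 74.7 CPM. The groups of Fkbp5 did not overlap, its log2 fold change was 0.49, and it passed in neither source (adjusted p = 0.078 in counts by edgeR and 0.0732 in FPKM by limma).

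Lcn2, an iron-binding protein of the acute response, and Hif3a, a transcription factor gene of the hypoxia family, were picked out after their values were seen. Lcn2 was at 0.153, 0.0475 and 0.181 CPM in F0_Ctl and 0.868, 3.1 and 4.25 CPM in F0_Dep, so it was close to 0 in normal mice and low in all. Hif3a measured 4.94, 4.75 and 3.58 CPM in F0_Ctl and 11.7, 12 and 12 CPM in F0_Dep. Both rose in FPKM, with adjusted p of 0.0155 and 0.0176 by limma, and missed in counts, with 0.0642 and 0.0512 by edgeR. In FPKM 8 list members rose and 0 fell: Sgk1, Plin4, Cdkn1a, Errfi1, Nfkbia, Sult1a1, Lcn2 and Hif3a.

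The receptors themselves did not pass in either source. Nr3c1, the glucocorticoid receptor gene, measured 115, 113 and 72.1 CPM in F0_Ctl and 95.8, 94.0 and 94.4 CPM in F0_Dep. Nr3c2, the mineralocorticoid receptor gene, measured 289, 255 and 218 CPM in F0_Ctl and 244, 277 and 272 CPM in F0_Dep. In both cases the stressed mice lay inside the range of the normal mice. Crhr1, a receptor for the stress peptide CRH, stood at a log2 change of -0.37 (adjusted p = 0.487, edgeR). Crh itself measured 3.21, 2.23 and 1.68 CPM in F0_Ctl and 1.30, 0.997 and 0.981 CPM in F0_Dep, and it fell in FPKM by 0.73 (adjusted p = 0.0245, limma) without passing in counts (adjusted p = 0.112, edgeR).

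**Figure D3:**
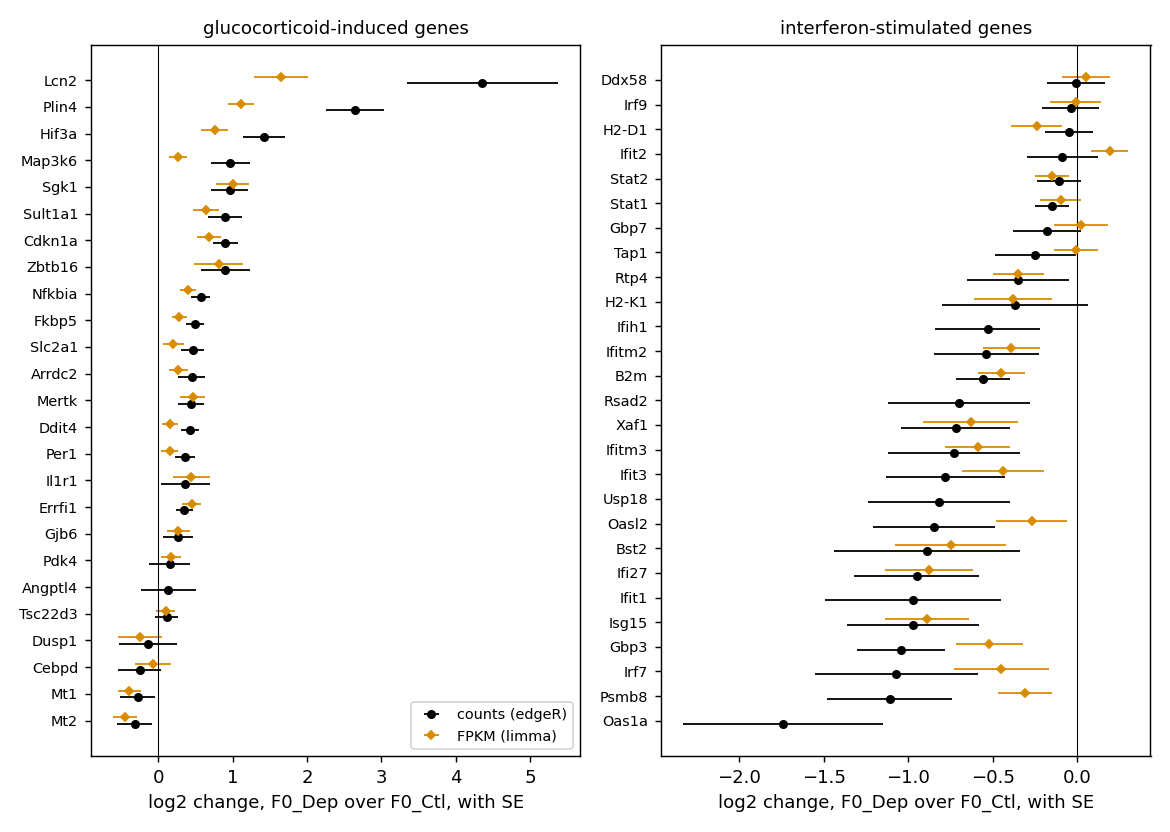
Log2 change, F0_Dep over F0_Ctl, with its SE (bars), of each tested gene of the glucocorticoid-induced list (left) and of the interferon-stimulated list (right), in counts (black) and in FPKM (orange, where tested). Most glucocorticoid-induced genes lie right of 0, with Lcn2 and Plin4 farthest, and in counts all 27 interferon-stimulated genes lie left of it.

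The promoters of the list were searched for the receptor's palindrome. In 250 bases before the starts of RefSeq promoters (GRCm38.p6), the half-sites GNACA and TGTNC, 3 bases apart, on either strand, were found in 3 of 22 list members with a promoter sequence (13.6%), Sgk1, Mt1 and Map3k6. They were found in 0.44% of all 27025 genes with one. Of the 42 promoters of genes that changed in both sources, 0 held it. Mt1, like Mt2 and Mt3, had a lower fitted value in F0_Dep in counts, and neither Mt1 nor Map3k6 was called higher in FPKM. Sgk1 is shown because it is the list member with a match that rose in FPKM. The stretch runs from 242 to 123 bases before one of its annotated starts, at chr10:21993648-21993767 on the plus strand, with the match in capitals.
Sgk1: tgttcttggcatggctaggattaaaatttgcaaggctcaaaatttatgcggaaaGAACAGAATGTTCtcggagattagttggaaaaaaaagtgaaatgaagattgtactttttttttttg

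Outside that list, the rise that passed in most count alternatives, among the named genes that rose or fell in both sources, was that of Etnppl, the enzyme that breaks down phosphoethanolamine, a building block of membrane lipids. Etnppl measured 12.5, 10.2 and 10.1 CPM in F0_Ctl 1, 2 and 3 and 35.1, 32.5 and 37.1 CPM in F0_Dep 1, 2 and 3. In FPKM it measured 3.29, 2.35 and 2.66 against 9.94, 8.80 and 9.72. Every stressed mouse was above every normal mouse by a wide gap in both. The rise was 1.68 ± 0.22 in counts (adjusted p = 0.0098, edgeR) and 1.48 ± 0.12 in FPKM (adjusted p = 0.0019, limma). It passed in 15 of 16 alternatives in counts and in 12 of 12 in FPKM, and the exception was the fit without F0_Dep 3 in counts (adjusted p = 0.0727, edgeR). The gene (ENSMUSG00000019232) lies on chromosome 3 from 130617448 to 130637521.

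The stress-inducible chaperone gene Hspa1b, whose product refolds damaged proteins, measured 20.6, 18.8 and 18.9 CPM in F0_Ctl and 54.5, 90.4 and 73.1 CPM in F0_Dep. It rose by 1.90 ± 0.33 in counts and 1.46 ± 0.28 in FPKM. In counts it passed in 1 of the 6 fits that left out a library, the one without F0_Ctl 2. With the length and GC correction it missed (adjusted p = 0.0517, edgeR). Its neighbour Hspa1a has nearly the same sequence, so reads may be split between them and the value of each is uncertain. Hspa1a itself measured 22.3, 18.2 and 22.7 CPM in F0_Ctl and 48.9, 65.3 and 47.9 CPM in F0_Dep, and rose in FPKM (adjusted p = 0.0156, limma) but not in counts (0.051, edgeR). In the list of heat shock chaperones 16 of 24 tested members had higher and 8 lower fitted values, with a median of 0.12 in counts, and 6 rose and 2 fell in FPKM. Hspa8, the constitutive family member, had 1871, 1848 and 1925 CPM in F0_Ctl and 1641, 1769 and 1746 CPM in F0_Dep, and passed in neither source.

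Further genes rose by more than 1 on the log2 scale in counts. Slc9a7, an exchanger of sodium or potassium for protons in the Golgi, rose by 1.42 from 6.46, 11.5 and 8.12 CPM to 18.2, 26.9 and 24.5 CPM. Klhl11, an adaptor of cullin ubiquitin ligases, rose by 1.40 from 9.46, 19.0 and 8.62 CPM to 27.7, 34.3 and 36.1 CPM. Palm2, a paralemmin of the cell membrane, rose by 1.29 from 8.75, 18.8 and 9.62 CPM to 26.9, 32.8 and 31.5 CPM. In each of these the highest normal mouse was F0_Ctl 2 and the groups stayed apart. Lonrf3, a RING finger gene, rose by 1.23 from 5.29, 8.45 and 5.81 CPM to 12.3, 16.9 and 16.9 CPM. Dgki, a kinase that turns diacylglycerol into phosphatidic acid, rose by 1.15 from 23.3, 26.5 and 15.6 CPM to 49.1, 50.7 and 44.6 CPM. Klf12, a transcriptional repressor, rose by 1.10 from 11.6, 19.3 and 13.4 CPM to 27.5, 34.2 and 33.7 CPM. F0_Ctl 2 was again the highest normal mouse for these 3 genes. Of the 6 fits that left out a library, each of these 6 genes passed in counts only in the one without F0_Ctl 2.

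**Figure D4:**
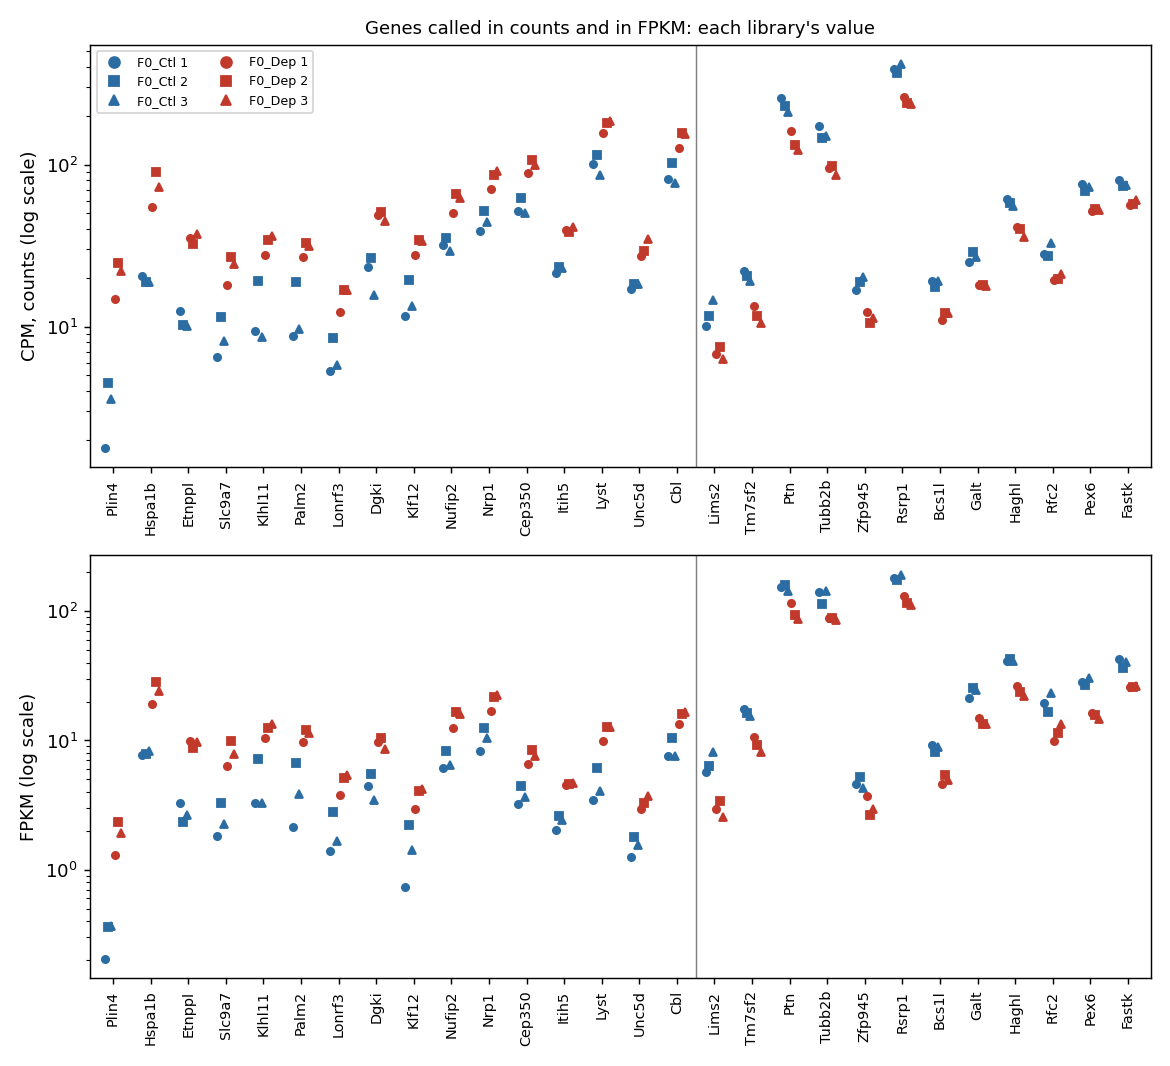
Value of each library for 16 rises (left of the line) and 12 falls (right) that passed in both sources, chosen by the smaller of their 2 log2 changes, as CPM from counts (top) and FPKM (bottom), both on log axes; colours are groups and shapes are replicate numbers. In each gene all 3 F0_Dep values lie on one side of all 3 F0_Ctl values in both panels, and F0_Ctl 2 is often the normal mouse nearest to F0_Dep.

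Among synapse and membrane signalling genes, 2 rises stood in lists of the postsynaptic side. Dlgap2, a scaffold of the postsynaptic density, measured 43.9, 56.7 and 45.6 CPM in F0_Ctl and 83.8, 96.3 and 90.7 CPM in F0_Dep, and rose by 0.89 ± 0.17. Cacng2, stargazin, which carries AMPA receptors to the synapse, measured 48.1, 53.3 and 51.5 CPM in F0_Ctl and 80.3, 78.9 and 81.5 CPM in F0_Dep, and rose by 0.65 ± 0.12. The groups of neither gene overlapped, and the stressed mice lay close together in Cacng2. Each of them passed in counts in 1 of the 6 fits that left out a library. Of the 39 tested postsynaptic scaffolds, 32 had higher fitted values (median 0.26 in counts and 0.23 in FPKM), 10 were apart upward and 0 downward, and with the length and GC correction the median was 0.07. Without F0_Ctl 3 it was 0.13, with 12 members lower against 7 in the full fit. AMPA receptor subunits and auxiliary proteins divided 13 higher and 8 lower in fitted value, with a median of 0.05 that turned to -0.06 without F0_Ctl 3.

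Genes of vesicle release on the presynaptic side leaned upward more evenly. Of 43 tested genes 37 had higher fitted values, with a median of 0.29 by counts and 0.32 by FPKM, and 16 were apart upward in both sources and 0 downward. No member passed in counts, while 14 rose and 1 fell (Rab3a) in FPKM. The list level was -0.29, -0.11 and -0.07 in F0_Ctl 1, 2 and 3 and 0.07, 0.16 and 0.17 in F0_Dep. All 3 normal mice lay below the stressed mice, F0_Ctl 3 nearest to them. With the length and GC correction the median was 0.24. Synj1, a phosphatase that recycles vesicles, measured 354, 418 and 363 CPM against 541, 607 and 607 CPM (adjusted p = 0.0512 in counts, edgeR). Pclo, a scaffold of the active zone, measured 235, 301 and 287 CPM against 424, 465 and 429 CPM (0.0565), and both genes rose in FPKM by limma.

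Ion channels showed a smaller shift of the same sign. Of 54 tested potassium channel genes 38 had higher fitted values, with a median of 0.12 in counts, 15 were apart upward and 2 downward, and 17 rose and 0 fell in FPKM. Kcna1, a channel of axons, measured 27.7, 67.5 and 58.5 CPM in F0_Ctl and 94.9, 117 and 134 CPM in F0_Dep. Kcnj6, an inward rectifier opened by G proteins, measured 37.9, 54.6 and 37.2 CPM in F0_Ctl and 81.5, 77.9 and 95.6 CPM in F0_Dep. Both rose in FPKM and missed in counts (adjusted p = 0.0645 and 0.0657, edgeR). Grin2b, a subunit of NMDA receptors, measured 519, 648 and 388 CPM against 901, 916 and 840 CPM and rose in FPKM by 1.03. Its log2 fold change in counts was 0.77, and 0.30 with the length and GC correction. In its own list of NMDA, kainate and delta receptor subunits, 11 of 15 tested genes had higher fitted values. That list had a median of 0.17 in counts and 0.02 with the correction. In FPKM its members Grin2b and Grik2 rose and Grin2c and Grik5 fell. For the potassium channels the median with that correction was 0.07. Leaving out 1 library, their median ran from 0.08 (without F0_Ctl 3) to 0.22 (without F0_Ctl 2). Without F0_Ctl 3, 23 members were lower, against 16 in the full fit.

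Genes of axon guidance held 2 of the genes that rose in both sources. Nrp1, a receptor for semaphorins and VEGF, measured 39.2, 51.4 and 44.3 CPM in F0_Ctl and 70.8, 86.5 and 91.0 CPM in F0_Dep, and rose by 0.88 ± 0.17. Unc5d, a receptor of netrin, rose by 0.76 ± 0.12. It measured 17.1, 18.3 and 18.4 CPM in F0_Ctl and 27.3, 29.1 and 34.6 CPM in F0_Dep. Of the 6 fits that left out a library, Nrp1 passed in counts in 1 and Unc5d in 3. Of 42 tested members 30 had higher fitted values, and 14 were apart upward and 0 downward. The median was 0.16 in counts and 0.13 with the length and GC correction. Leaving out 1 library, it ran from 0.14 (without F0_Dep 2) to 0.26 (without F0_Ctl 1). The levels were -0.17, -0.05 and -0.11 in F0_Ctl and 0.07, 0.15 and 0.13 in F0_Dep.

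Of the genes that act on chromatin, 4 rose in both sources. Kmt2c and Setd1b, which methylate histone H3, Ep300, which acetylates histones, and Hdac4, a deacetylase, rose by 0.78, 0.72, 0.61 and 0.51 in counts. Kmt2c measured 97.9, 131 and 92.8 CPM in F0_Ctl and 162, 193 and 198 CPM in F0_Dep, and Setd1b 42.8, 50.5 and 42.3 CPM against 76.9, 73.4 and 73.6 CPM. Their groups did not overlap. Of the 6 fits that left out a library, Kmt2c, Setd1b and Ep300 each passed in counts in 1 and Hdac4 in 2. These are long transcripts, from 8100 bases in Hdac4 to 14967 in Kmt2c, and with the length and GC correction Kmt2c had 0.40 and Hdac4 0.28, with no call. Over the list 40 of 55 tested genes had higher fitted values, with a median of 0.07 in counts. With the length and GC correction the list median was 0.02, against -0.01 for all genes. In FPKM 9 of 53 tested members rose and 4 fell, where 10.4% of all genes rose and 10.8% fell. Leaving out 1 library, the list median in counts ran from 0.06 (without F0_Dep 3) to 0.13 (without F0_Ctl 2).

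Many ubiquitin ligases and adaptors stood higher in the stressed mice. Of 51 tested genes 43 had higher fitted values, 22 were apart upward and 0 downward, and in FPKM 24 rose and 1 fell (Rnf220). The median was 0.17 in counts, 0.32 in FPKM and 0.10 with the length and GC correction, and the list's median transcript had 5290 bases. Klhl11 and Lonrf3, given above, were the members that rose in both sources. Cbl, a ligase for activated growth factor receptors that is not in that list, rose by 0.75 ± 0.14. It measured 81.5, 102 and 76.9 CPM in F0_Ctl and 126, 156 and 155 CPM in F0_Dep. Cbl passed in counts in 1 of the 6 fits that left out a library.

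The remaining rises in both sources spread over many roles. Nufip2, an RNA-binding partner of the fragile X protein, measured 31.7, 35.3 and 29.4 CPM in F0_Ctl and 50.4, 66.1 and 62.5 CPM in F0_Dep. It rose by 0.89 ± 0.11, and by 0.82 with an adjusted p = 0.0165 by edgeR after the length and GC correction. Itih5, a protein of the hyaluronan matrix, measured 21.3, 23.5 and 23.0 CPM against 39.4, 38.2 and 41.0 CPM, a rise of 0.81 ± 0.10 that passed in 5 of the 6 fits leaving out a library. Cep350, a centrosomal protein, rose by 0.85, Lyst, which regulates lysosome size, by 0.80, and Pfkfb3, which drives glycolysis through fructose bisphosphate, by 0.74. Tnrc6b, a partner of Argonaute in silencing by microRNAs, rose by 0.62, Rapgef2, an exchange factor of Rap, by 0.61, and Ptch1, the receptor of hedgehog, by 0.47. With the length and GC correction Tnrc6b had 0.21, Ptch1 0.17, Cep350 0.50, Lyst 0.45, Rapgef2 0.43, Pfkfb3 0.68 and Itih5 0.59, and none of these 7 passed. Pcdhga5, a clustered protocadherin of neuronal contacts, rose by 0.91 but shares exons with its cluster, so its value is uncertain.

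Of the 14 genes that fell in both sources, Ptn and Tubb2b are linked to growing neurons. Ptn, the growth factor pleiotrophin (ENSMUSG00000029838, chromosome 6, 36714929 to 36810220), measured 258, 231 and 212 CPM in F0_Ctl and 162, 132 and 124 CPM in F0_Dep. It fell by 0.75 (log2 scale) in counts (SE 0.12, adjusted p = 0.0306, edgeR) and by 0.64 in FPKM. Tubb2b, a tubulin of young neurons (ENSMUSG00000045136, chromosome 13, 34126748 to 34130466), measured 172, 145 and 151 CPM against 95.9, 98.6 and 86.2 CPM and fell by 0.73 (SE 0.11). The groups were apart in both genes. Of the 6 fits that left out a library, Ptn passed in counts in 3 and Tubb2b in 2. Its near copy Tubb2a can share reads with Tubb2b. In the list of immature neuron and progenitor genes 17 of 21 tested members had lower fitted values, with a median of -0.18 in counts, and Tubb2b, Tubb3, Stmn1 and Igfbpl1 were among those that fell in FPKM. With the length and GC correction the median was -0.37.

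Other falls concerned metabolism and organelles. Tm7sf2, a reductase of sterol synthesis, measured 22.2, 20.4 and 19.2 CPM in F0_Ctl and 13.5, 11.7 and 10.6 CPM in F0_Dep, and fell by 0.79 (SE 0.13). Of 31 tested genes of cholesterol synthesis and uptake 22 had lower fitted values. Their median was -0.18 in counts, -0.12 in FPKM and -0.11 with the length and GC correction. In FPKM 5 of the 31 fell and 1 rose, where 10.8% of all genes fell and 10.4% rose. Bcs1l, which assembles respiratory complex III, fell by 0.66 from 19.2, 17.5 and 19.0 CPM to 11, 12.1 and 12.2 CPM. Pex6, a motor of peroxisome import, fell by 0.46 from 76.1, 68.3 and 72.4 CPM to 51.6, 53.3 and 52.4 CPM. Galt, of galactose metabolism, fell by 0.59 from 25.2, 29.0 and 26.8 CPM to 18, 18 and 17.8 CPM. In these 4 genes the stressed mice were close to each other and below every normal mouse. Of the 6 fits that left out a library, Tm7sf2 and Bcs1l passed in counts in 2, Pex6 in 1 and Galt in 0.

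Lims2, a LIM adaptor of cell adhesion, had the largest fall in FPKM among the 14 genes that fell in both sources, by 0.95, with 10.1, 11.6 and 14.6 CPM in F0_Ctl and 6.73, 7.53 and 6.32 CPM in F0_Dep. Rfc2, a subunit of the clamp loader of DNA replication, fell by 0.55 from 28.0, 27.4 and 33.0 CPM to 19.3, 19.7 and 21.1 CPM. Zfp945, a zinc finger gene, fell by 0.71 from 16.8, 18.9 and 20.2 CPM to 12.4, 10.5 and 11.3 CPM. Rfc2 and Zfp945 were the falls that kept their call with the length and GC correction, with adjusted p of 0.0298 and 0.0286 by edgeR. Lims2, Rfc2 and Zfp945 each passed in counts in 1 of the 6 fits that left out a library. Rsrp1, Haghl and Fastk also fell in both sources, by 0.67, 0.57 and 0.40 in counts.

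Messages for ribosomes and for the respiratory chain, which are short, stood lower in stressed mice. Of 84 tested cytosolic ribosomal protein genes 82 had lower fitted values, with a median of -0.31 by counts and -0.40 by FPKM, where 44 fell and 0 rose. No member passed in counts. Rps19 measured 90.6, 60.9 and 69.5 CPM in F0_Ctl and 49.5, 42.8 and 39.7 CPM in F0_Dep, and fell in FPKM by 0.99. The list level was 0.40, -0.10 and 0.14 in F0_Ctl 1, 2 and 3 and -0.05, -0.17 and -0.23 in F0_Dep, so F0_Ctl 2 lay within the stressed mice. The median transcript had 1076 bases, and with the length and GC correction the median change was -0.17, as it was without F0_Ctl 1.

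Nuclear genes of oxidative phosphorylation leaned the same way, with 63 of 73 lower, a median of -0.21 in counts, 26 that fell and 0 that rose in FPKM, and -0.06 with the length and GC correction. Without F0_Ctl 1 the median was -0.10. F0_Ctl 2, at -0.09, again lay among the stressed mice (-0.03, -0.09 and -0.17). Mitochondrially encoded genes differed from this in that all 3 normal mice, at 0.48, 0.19 and 0.19, lay above the stressed mice at -0.34, -0.25 and -0.29 in counts. The median change was -0.56 in counts and -0.24 in FPKM, where mt-Nd4 and mt-Nd6 fell and mt-Nd4l and mt-Atp8 rose. The gene mt-Nd6, of a complex I subunit, measured 1061, 887 and 1053 CPM in F0_Ctl and 591, 588 and 584 CPM in F0_Dep. It fell in counts by 0.77 and in FPKM by 0.33. The share of all counts in mitochondrial genes was 7.75 to 9.26% in F0_Ctl and 5.09 to 5.32% in F0_Dep, and 5.68 to 5.86% in F0_Dep when 2 nuclear copies were added.

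Immune gene lists differed in the direction of their median change. All 27 tested interferon-stimulated genes had lower fitted values in F0_Dep, with a median of -0.70 by counts and -0.37 by FPKM, and no member passed in counts. The list level was 0.11, -0.09 and 0.58 in F0_Ctl 1, 2 and 3 and -0.18, -0.12 and -0.41 in F0_Dep. Without F0_Ctl 3 the median was -0.30 and 23 of the 27 were lower. Of 22 members tested in FPKM 3 fell, and 2 were apart downward in both sources. Over all tested genes 10.8% fell in FPKM and 9.6% were apart downward, so both counts lay near the share of all genes. Isg15, a ubiquitin-like protein, B2m, the light chain of MHC class I, and Ifi27 fell in FPKM, picked out because they were the list members that did. B2m measured 102, 68.0 and 95.6 CPM against 63.1, 63.0 and 54.7 CPM (adjusted p = 0.0999 in counts, edgeR, and 0.0419 in FPKM, limma). Isg15 was low in all 6 libraries, at 2.24, 1.33 and 2.68 CPM against 1.30, 0.886 and 0.981 CPM. In the list of inflammatory cytokine signalling, by comparison, 18 of 25 tested genes had higher fitted values, with a median of 0.31. Its level was -0.16, -0.25 and 0.02 in F0_Ctl and 0.04, 0.19 and 0.01 in F0_Dep, so the groups overlapped. Of 20 members tested in FPKM, 3 rose (Nfkbia, the inhibitor of NF-kB, Il6st and Lcn2) and 2 fell (Rela and Tnfrsf1a). Over all genes 10.4% rose and 10.8% fell, so these counts, too, lay near the share of all genes. Nfkbia and Lcn2 are also in the glucocorticoid-induced list.

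Interferon-stimulated genes are known for an element that STAT and IRF factors bind, and sequences are shown for how far the list shares it. A pair of half-sites GAAA, 2 bases apart, on either strand, was found in the 250 bases before a start in 11 of 23 list members with a promoter sequence (47.8%). It was found in 3.46% of all genes and in 0 of the 42 promoters of genes that changed in both sources. Isg15 and B2m are shown because they fell in FPKM, and Ifit3 because it holds 2 copies, with matches in capitals. Isg15 lies at chr4:156200826-156200945 on the minus strand, B2m lies at chr2:122147493-122147612 on the plus strand, and Ifit3 lies at chr19:34583335-34583454 on the plus strand, all in RefSeq on GRCm38.p6.
Isg15: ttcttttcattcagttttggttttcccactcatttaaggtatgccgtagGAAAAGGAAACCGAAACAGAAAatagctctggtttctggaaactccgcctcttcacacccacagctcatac
B2m: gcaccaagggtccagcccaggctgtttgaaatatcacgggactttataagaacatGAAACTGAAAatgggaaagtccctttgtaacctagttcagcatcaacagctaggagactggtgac
Ifit3: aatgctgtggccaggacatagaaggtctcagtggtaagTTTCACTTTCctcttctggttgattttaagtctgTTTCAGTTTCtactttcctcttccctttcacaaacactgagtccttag
In Isg15 the 3 matches overlap into 1 run, B2m holds 1 match, and the 2 of Ifit3 read on the other strand.

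Cell types were followed through marker lists, and in bulk tissue fewer cells of a type and less RNA per cell cannot be told apart. Vessel genes were lower in the stressed mice. Of 25 tested endothelial genes 19 had lower fitted values, with a median of -0.32 by counts and -0.31 by FPKM, 10 were apart downward and 0 upward, and 8 fell in FPKM. The level was 0.20, 0.01 and 0.20 in F0_Ctl and -0.17, -0.13 and -0.12 in F0_Dep, and the median was -0.29 with the length and GC correction. Itm2a, a membrane protein enriched in vessels, measured 47.1, 35.5 and 38.6 CPM in F0_Ctl and 25.0, 25.8 and 26.5 CPM in F0_Dep and fell in both sources, by 0.65 in counts. Cldn5, the tight junction protein of the blood-brain barrier, measured 50.4, 27.8 and 31.7 CPM against 19.0, 21.2 and 23.7 CPM, fell in FPKM by 1.01 and missed in counts (adjusted p = 0.0727, edgeR). The groups of both genes were apart, with F0_Ctl 1 the highest. Itm2a passed in counts in 2 of the 6 fits that left out a library.

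Pericyte and smooth muscle genes had 13 of 15 lower, with a median of -0.44 (-0.26 without F0_Ctl 1). Rgs5, a marker of pericytes, measured 108, 95.0 and 108 CPM in F0_Ctl and 71.4, 74.9 and 76.1 CPM in F0_Dep, fell in counts and did not pass in FPKM (adjusted p = 0.262, limma). Genes of red blood cells were lower too, without a call: Hba-a1 measured 23.5, 13.8 and 45.3 CPM against 8.36, 9.25 and 7.19 CPM, and 5 of 6 tested blood genes were lower, with list levels of 0.50, -0.41 and 1.58 in F0_Ctl and -0.74 to -0.38 in F0_Dep. The part of blood left in the vessels in these values was not tested.

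**Figure D5:**
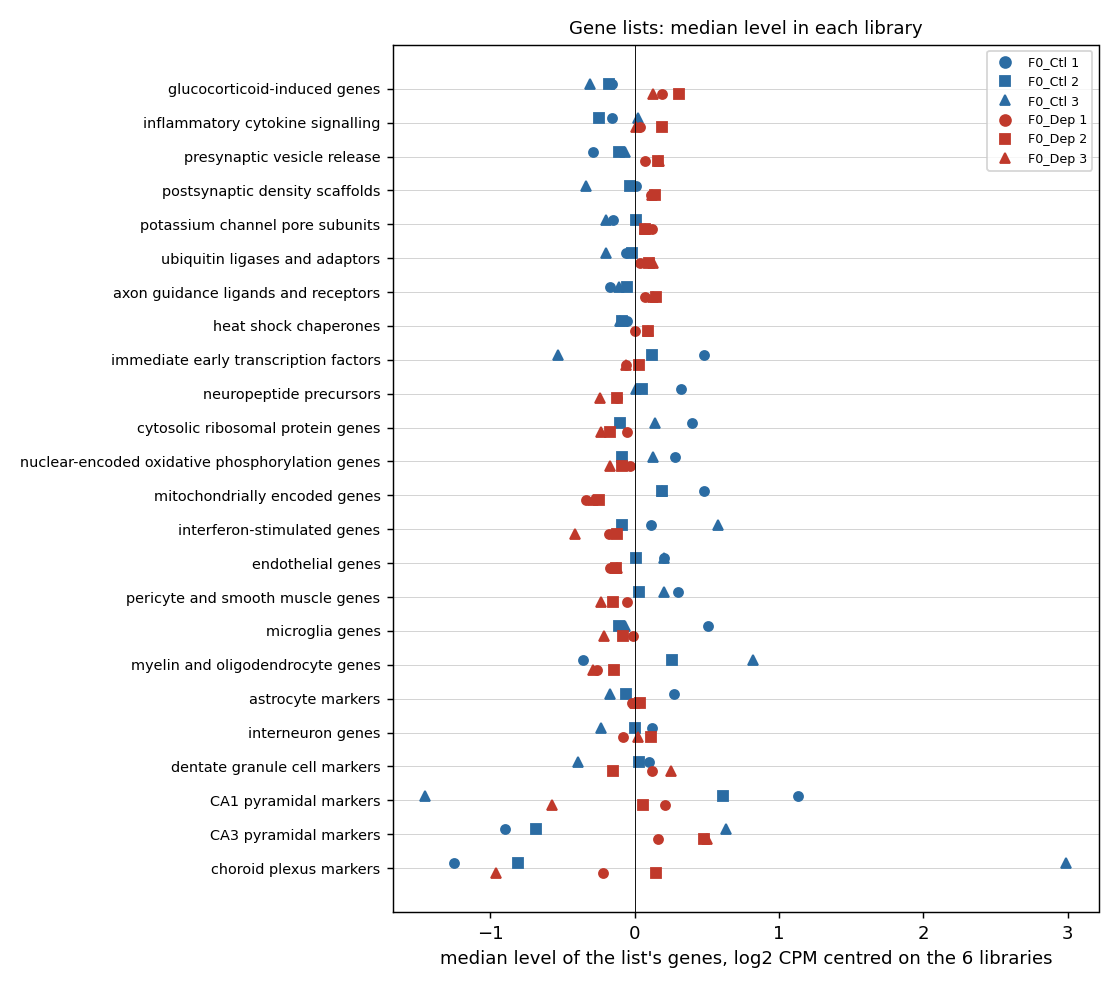
Median level of each gene list in each library (horizontal axis, log2 CPM centred on the 6 libraries; red F0_Dep, blue F0_Ctl, shapes are replicate numbers). Glucocorticoid-induced, presynaptic, postsynaptic, potassium channel, ubiquitin ligase, axon guidance and heat shock lists keep the groups apart upward. Endothelial, pericyte, neuropeptide, interferon-stimulated and mitochondrially encoded lists keep them apart downward. In the CA1, CA3 and choroid plexus lists the normal mice spread more widely than the stressed mice.

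Oligodendrocyte genes depended on the normal mice. Of 24 tested myelin and oligodendrocyte genes 22 had lower fitted values, with a median of -0.56, but the level was -0.36, 0.26 and 0.82 in F0_Ctl 1, 2 and 3 and -0.26, -0.14 and -0.29 in F0_Dep, so F0_Ctl 1 was lowest of all. Olig1, a transcription factor of the lineage, measured 129, 114 and 155 CPM in F0_Ctl and 84.1, 82.9 and 69.1 CPM in F0_Dep, and fell in FPKM by 1.11 (adjusted p = 0.0663 in counts, edgeR). Sox10, another lineage factor, measured 41.9, 54.9 and 71.3 CPM against 34.9, 35.6 and 35.6 CPM and fell in FPKM. The groups of both lineage factors were apart. Without F0_Ctl 3 the median of the list was -0.22. Mbp, the myelin basic protein gene, gave 55 to 75.8 CPM in counts but 801 to 2238 FPKM.

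Neurons of the hippocampal fields varied most among the normal mice. CA1 markers stood at 1.13, 0.61 and -1.45 in F0_Ctl and 0.21, 0.06 and -0.57 in F0_Dep, and CA3 markers at -0.90, -0.68 and 0.63 in F0_Ctl and 0.16, 0.48 and 0.50 in F0_Dep. The stressed mice lay inside the normal range for both, and F0_Ctl 3 was lowest for CA1 and highest for CA3. The median change was -0.54 for CA1 markers and 0.59 for CA3 markers. Without F0_Ctl 3 it was -1 and 1.21, and without F0_Ctl 1 it was 0.05 and 0.27, so the direction for CA1 rested on F0_Ctl 1. The share of each field in the tissue was not measured otherwise, and its part in other results was not tested. General excitatory genes (median 0.01 in counts and -0.03 in FPKM), interneuron genes (0.04 and -0.06) and astrocyte markers (-0.03 and -0.04) lay near all genes in both sources. Dentate granule cell markers had 0.10 in counts, from -0.01 without F0_Ctl 3 to 0.22 without F0_Ctl 1, and 0.25 in FPKM.

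Within those lists single genes went different ways. Of interneuron genes Gad1, Gad2, Erbb4 and Cnr1 rose and Sst, Cck, Npy and Cort fell in FPKM. Gad1 and Gad2 make GABA, and Sst, Cck, Npy and Cort are peptides. Among 24 tested neuropeptide precursor genes 19 had lower fitted values, with a median of -0.41 in both sources (-0.19 in counts without F0_Ctl 1), and Npy, Sst, Cck, Crh, Cort, Vgf and Pcsk1n fell and Pcsk2 rose in FPKM. Vgf, a secreted peptide precursor that neurotrophins induce, measured 196, 197 and 163 CPM in F0_Ctl and 142, 148 and 131 CPM in F0_Dep, and fell in FPKM by 0.79 (adjusted p = 0.0924 in counts, edgeR). These precursors are short, with a median of 2046 bases, and with the length and GC correction their median was -0.27. Microglia genes had 20 of 23 lower, with a median of -0.21 that turned to 0.03 without F0_Ctl 1. F0_Ctl 1 was highest at 0.51, and the other normal mice, at -0.11 and -0.07, overlapped the stressed mice at -0.01, -0.08 and -0.21. Aif1 and Gfap, markers of microglia and astrocytes, passed in neither source.

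Among genes of neuronal activity, Fos, Arc and Egr1 overlapped between the groups. Fos measured 29.1, 26.2 and 12.7 CPM in F0_Ctl and 14.9, 16.9 and 14.0 CPM in F0_Dep. Arc measured 436, 296 and 116 CPM against 246, 264 and 184 CPM, and Egr1 448, 287 and 110 CPM against 200, 195 and 128 CPM. In all 3 genes F0_Ctl 3 was the lowest of the 6 mice and F0_Ctl 1 the highest, with the stressed mice between them. Of 30 tested activity effector genes 13 had higher and 17 lower fitted values, with a median of -0.04 in counts. Of these, 1 was apart upward in both sources and 4 downward. Of 19 tested immediate early transcription factors 8 were higher and 11 lower, with a median of -0.21. Of these, 2 were apart upward and 0 downward. Over all genes 10.5% were apart upward and 9.6% downward. The list members Nptx1, Nr4a3 and Plk3 were apart in both sources. Nptx1, a pentraxin of synapses, measured 629, 581 and 690 CPM in F0_Ctl and 909, 909 and 1021 CPM in F0_Dep, and Nr4a3, an orphan nuclear receptor, 106, 96.8 and 101 CPM against 125, 138 and 151 CPM. Plk3, a kinase, was lower, at 13.1, 14.3 and 12.1 CPM against 8.95, 9.58 and 8.39 CPM. In FPKM Nptx1 and Nr4a3 rose and Plk3 fell (adjusted p = 0.0135, 0.0169 and 0.00908, limma), and none of them passed in counts (0.0587, 0.112 and 0.061, edgeR). Npas4 did not pass the filter on low counts. Bdnf, the neurotrophin gene, measured 65.2, 51.3 and 55.7 CPM against 51.7, 54.8 and 63.5 CPM, with a log2 fold change of -0.02 ± 0.13 (adjusted p = 0.952, edgeR).

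Markers of tissue beside the hippocampus stood out in a normal and in a stressed mouse. Thalamus markers were at 0.80 in F0_Dep 1 and from -0.64 to 0.32 in the other 5 libraries, and their median change of 0.43 was 0.04 without F0_Dep 1. Choroid plexus markers stood at 2.99 in F0_Ctl 3, at -1.25 and -0.81 in F0_Ctl 1 and 2 and at -0.22, 0.15 and -0.96 in F0_Dep. Of 23 tested markers 22 had lower fitted values in F0_Dep with F0_Ctl 3 in the fit (median -2.28), and without it the median was 1.27. Kcnj13 measured 30.3 CPM in F0_Ctl 3 and at most 0.886 CPM in the other libraries. With F0_Ctl 3 and 2 offspring libraries with most choroid plexus or striatum RNA left out, chosen after seeing the data, 380 genes passed in both sources, against 59 with all libraries.

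Several large differences were found in 1 source alone. Gm28661, a nuclear copy of mt-Co2 on chromosome 1, held 78325, 74323 and 85517 counts in F0_Dep and 0 in the 9 other libraries. In FPKM it measured 6990, 5631 and 5681 in F0_Ctl and 5337, 5346 and 5479 in F0_Dep. The mitochondrial gene mt-Co2 fell in counts from 9543, 7216 and 7170 CPM to 1494, 1698 and 886 CPM, while its FPKM of 6388, 5391 and 5298 against 4907, 4886 and 4826 gave no call. Rpl36a-ps2, a ribosomal pseudogene, held 138, 99 and 28 counts in F0_Ctl and 0 in F0_Dep, and was measured in FPKM in all 6. These genes share near-identical sequence with another gene, and the part of read assignment in their values was not tested. Since the pattern follows all 3 F0_Dep libraries and no other, a difference in how those libraries were counted and a difference between the mice cannot be told apart by counts alone, for any gene.

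Protein-coding genes were touched as well. Galnt2, which starts O-linked glycosylation, rose in counts from 35.4, 28.3 and 30.3 CPM to 60.7, 66.2 and 61.8 CPM, with an adjusted p = 0.00189 by edgeR, but measured 12.6, 14.6 and 13.9 FPKM against 13.7, 14.9 and 14.7 FPKM. Lrrc17, singled out after its values were seen, measured 1.42, 2.04 and 1.63 CPM in F0_Ctl and 13.1, 14.8 and 10.9 CPM in F0_Dep, and at most 0.0867 FPKM in any of the 6 libraries. For these genes the change in counts is uncertain, since the other source shows no such difference.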

How the data were processed

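Hippocampal RNA of 12 mice, 3 in each of 4 groups, was measured, and F0_Dep was compared with F0_Ctl. Libraries were made with a stranded mRNA kit, per the labels' protocols. The authors deposited expected counts (estimates, not always whole) per Ensembl gene for 12 libraries and FPKM per gene for 9. HISAT2, Cufflinks 2.2.1 and mm10 are named per the submitters' processing notes; the sources used here do not give the counting tool or its use of strand, so overlapping and antisense genes cannot be told apart. Unused per-sample columns numbered 0.

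Of 35812 gene IDs, 35202 had a symbol; the rest held 0.579% of counts. Of 26305 gene positions, 99.97% overlapped that gene's position in GENCODE M21 (GRCm38), which gave coordinates, lengths and GC content. Same-named libraries of both sources correlated best with each other, but less closely in F0_Dep. The r was 0.69, 0.68 and 0.75 in F0_Dep 1, 2 and 3 and 0.83, 0.81 and 0.85 in F0_Ctl 1, 2 and 3. The largest r with a differently named library was 0.38, 0.54 and 0.55 in F0_Dep and 0.18, 0.1 and 0.12 in F0_Ctl. The source of this difference was not tested.

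Expected counts were rounded and tested with edgeR 4.0.16 (R 4.3.3; TMM, filterByExpr, quasi-likelihood F-test over all 12 libraries). SEs come from the F statistic and are approximate. CPM use TMM-scaled totals. For FPKM, limma 3.58.1 was run on log2(FPKM + 1) of genes that reached 1 FPKM in 3 or more of 9 libraries. Calls had a Benjamini-Hochberg adjusted p under 0.05. With 3 against 3 mice, an exact permutation test of 1 gene cannot go below 0.1, so none is given. The fits were tested on simulated data with known changes. Those data held no length profile, no library of other tissue and no counting difference, so they cannot show how the fits handle these. P-values measure the spread between these mice.

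Named genes were the 16 largest rises and 12 largest falls, by the smaller of their 2 log2 changes, called in both sources with groups apart and a mean of at least 2 CPM, without predicted genes, up to 3 called members per list or else its 2 smallest p in counts, up to 8 genes whose sources differed most, and 14 fixed stress, activity and cell type genes; other genes were added as list examples after their values were seen. The members and the 61 gene lists were chosen with earlier results of these data known. List levels are medians of the members' log2(CPM + 0.5), centred on the 6 F0 libraries. Lists were described by counts and medians, with no test. Alternatives were other scalings, filters, DESeq2 1.42.0, voom with library weights, a replicate block, smooth corrections for length and GC content (mgcv 1.9.3), the 6 F0 libraries alone and leaving out each library. Some results are not reported here.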

Additional observations from a re-analysis of the deposited data

How the results depend on the processing

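The counts of calls moved much more than the directions. Against 80 calls in counts, 42 passed with library totals alone, 144 with no filter on low counts, 23 with the 6 F0 libraries alone, 18 with length and GC offsets, 1080 with DESeq2, 422 with voom and library weights and 688 at an adjusted p under 0.1; DESeq2's size factors gave 114 calls. Against 2930 calls in FPKM, 1616 passed with no filter on low FPKM, 1507 with the 6 F0 libraries alone and 4506 at an adjusted p under 0.1. Of the genes called in both, 59 in the reported fit, 28 passed with library totals alone, 108 with no filter, 11 with the 6 F0 libraries, 9 with length and GC offsets, 749 with DESeq2, 314 with voom and 544 at an adjusted p under 0.1. Leaving out 1 library gave 5 (without F0_Dep 3) to 373 (without F0_Ctl 2) calls in counts, 41 to 4581 in FPKM (the same 2 libraries) and 0 to 311 in both. In counts F0_Ctl 1, F0_Dep 1 and F0_Dep 2 also decided, with 7, 17 and 11 calls without them, and in FPKM F0_Dep 2, F0_Ctl 1 and F0_Ctl 3, with 236, 1900 and 1931. With the libraries of most choroid plexus or striatum RNA left out, chosen after seeing the data, 512 passed in counts and 380 in both, and 2026 in FPKM. The cause of these shifts was not tested.

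With the replicate block 12 genes passed in counts, 2727 in FPKM and 7 in both, and with length and GC offsets together with the replicate block 24 in counts and 15 in both. Deviations of same-numbered F0_Ctl and F0_Dep libraries from their group means had r = 0.08, -0.11 and -0.08. Those of differently numbered libraries had r from -0.07 to 0.14. With 3 libraries in each group, these values cannot tell whether the numbers pair the mice. Depth limits genes with few counts, such as Lcn2 in normal mice and Npas4.

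The balance of calls turned in some settings: with library totals alone from 56 higher and 24 lower to 18 and 24 in counts and from 45 and 14 to 13 and 15 in both sources. In FPKM it went from 1439 and 1491 to 830 and 786 with no filter and to 2370 and 2211 without F0_Ctl 2. Of 61 list medians 20 changed sign in some alternative.

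Of 165 genes followed, 10 changed sign in some alternative, none with a call in either fit. Leaving out 1 library, counts ran from -5.06 to 3.18 for Kcnj13, -4.67 to 2.15 for Kcne2, -2.34 to 0.36 for Cfap126, -4.72 to 4.70 for Ttr, -0.26 to 0.05 for Nr3c1, -0.04 to 0.17 for Nr3c2, -0.11 to 0.10 for Bdnf, -0.65 to 0.18 for Arc and -0.14 to 0.13 for Gfap. FPKM ran from -1.94 to 0.38 for Kcnj13, -1.63 to 0.25 for Kcne2, -1.10 to 0.10 for Cfap126, -0.39 to 0.03 for Ogn, -0.81 to 0.04 for Arc and -1.67 to 3.43 for Ttr. With the choroid plexus or striatum libraries left out, counts gave 3.18 for Kcnj13, 2.15 for Kcne2, 0.36 for Cfap126, -0.04 for Nr3c2 and 4.69 for Ttr, and FPKM 0.10 for Cfap126 and 0.03 for Ogn. Voom gave 0.03 for Kcne2, Bdnf and Gfap and 0.54 for Ttr. Length and GC offsets gave -0.09 for Nr3c2 and 0.05 for Gfap, and with the replicate block -0.08, 0.03 and, for Ttr, 0.69 (0.70 with the block alone). Rpl28-ps1 and Slc17a7, near 0 in FPKM, ran from -0.26 to 0.25 and -0.09 to 0.14, with 0.05 for Rpl28-ps1 at pseudocount 0.1 and 0.14 for Slc17a7 without the choroid plexus or striatum libraries.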
